A study of Homo sapiens with 6 samples.

Results

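The genes described here are 42 genes of DNA replication and of the passage from G1 into S phase, taken from a fixed list of names and found in the deposited table by those names. All 42 were present among its 56303 rows, and all 42 passed the filter on low counts that left 20465 genes for testing. RNA was sequenced from A549, an established human lung adenocarcinoma cell line. Cells transfected with an siRNA against HNRNPD (labelled "HNRNPD si", 3 libraries) were compared with cells transfected with a negative-control siRNA (labelled "HNRNPD NC", 3 libraries). The sources give no dose, no time after transfection and no siRNA sequence, nor do they state separate cultures within a group. The p-values therefore refer to the variation among the libraries at hand, possibly technical.

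Before S phase, the origin recognition complex (ORC), CDC6 and CDT1 load the MCM2-7 helicase onto DNA at replication origins, a step called licensing. At the entry into S phase, cyclin E with its kinase CDK2 and the kinase CDC7 help to switch the helicase on by joining it to CDC45 and the GINS complex, and DNA polymerases then copy both strands on the sliding clamp PCNA, which the clamp loader RFC places on DNA. Many of the genes for these proteins are transcribed by E2F factors, whose activity rises late in G1, which is why they are used as readouts of proliferating cells. HNRNPD encodes AUF1, an RNA-binding protein that binds AU-rich sequences in mRNAs.

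To show the regulatory sequence that many of these genes share, promoter windows were taken from RefSeq (GRCh38.p14), each running from 250 bases before to 50 bases after a transcription start. Windows were given for 37 of the 42 genes. They were searched on both strands for 4 E2F forms, TTTCCCGC, TTTGGCGC, TTTCGCGC and TTTGCCGC. Of the 37 genes, 21 (56.8%) had at least 1 match, against 3.31% of all 35116 promoter windows. A gene counted if any of its windows matched, and some had more than 1, so the shares are of genes and of single windows. The windows of 5 genes that the results turn on are printed 5′ to 3′, with E2F matches in capitals. MCM6 and MCM2 are the helicase subunits with the largest falls, TK1 had the largest fall and ORC6 the largest rise of all 42 genes, and PCNA rose while most genes of its pathway did not. The windows are chr2:135876394-135876693 (minus strand) for MCM6, chr3:127598161-127598460 (plus strand) for MCM2, chr20:5126573-5126872 (minus strand) for PCNA, chr17:78187155-78187454 (minus strand) for TK1 and chr16:46689409-46689708 (plus strand) for ORC6.
MCM6: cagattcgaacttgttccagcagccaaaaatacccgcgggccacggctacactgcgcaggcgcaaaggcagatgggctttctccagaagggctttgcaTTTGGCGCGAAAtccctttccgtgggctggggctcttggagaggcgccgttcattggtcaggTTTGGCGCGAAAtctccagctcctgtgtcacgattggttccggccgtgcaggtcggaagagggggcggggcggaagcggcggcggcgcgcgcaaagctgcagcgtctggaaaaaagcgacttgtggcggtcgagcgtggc
MCM2: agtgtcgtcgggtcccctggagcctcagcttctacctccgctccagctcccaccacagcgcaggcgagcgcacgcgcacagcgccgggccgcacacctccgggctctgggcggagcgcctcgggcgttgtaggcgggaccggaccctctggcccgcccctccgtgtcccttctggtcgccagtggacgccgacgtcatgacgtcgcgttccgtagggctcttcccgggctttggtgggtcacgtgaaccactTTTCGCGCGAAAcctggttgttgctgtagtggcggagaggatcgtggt
PCNA: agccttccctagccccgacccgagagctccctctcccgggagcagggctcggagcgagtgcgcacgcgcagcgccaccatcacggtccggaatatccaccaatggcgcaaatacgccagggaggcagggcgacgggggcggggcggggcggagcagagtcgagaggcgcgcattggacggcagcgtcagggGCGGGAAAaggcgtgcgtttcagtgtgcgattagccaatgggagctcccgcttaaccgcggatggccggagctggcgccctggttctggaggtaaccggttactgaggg
TK1: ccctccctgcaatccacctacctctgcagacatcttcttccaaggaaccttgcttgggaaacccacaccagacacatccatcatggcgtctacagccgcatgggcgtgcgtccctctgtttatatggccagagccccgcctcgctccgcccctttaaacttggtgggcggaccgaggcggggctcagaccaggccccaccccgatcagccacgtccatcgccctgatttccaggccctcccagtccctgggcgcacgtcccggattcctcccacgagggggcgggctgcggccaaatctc
ORC6: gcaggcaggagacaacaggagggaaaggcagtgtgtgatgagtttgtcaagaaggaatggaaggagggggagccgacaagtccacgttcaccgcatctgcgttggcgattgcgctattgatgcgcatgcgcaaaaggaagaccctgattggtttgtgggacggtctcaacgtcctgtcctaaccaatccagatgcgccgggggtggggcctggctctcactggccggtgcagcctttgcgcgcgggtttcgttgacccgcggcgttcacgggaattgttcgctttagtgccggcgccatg
In MCM6 the 4 matches lie in 2 stretches, each formed by TTTGGCGC on the printed strand overlapping TTTCGCGC on the other strand, and they begin at positions -152, -148, -90 and -86 from the start. In MCM2 the 2 matches are TTTCGCGC on each strand, overlapping each other, at positions 3 and 7. PCNA has 1 match, TTTCCCGC on the strand opposite to the printed one, at position -59. Neither TK1, in either of its 2 windows, nor ORC6 holds any of the 4 forms. A match describes the letters only, and these data hold no measurement of binding.

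The targeted gene and the identity of the cells were checked first. HNRNPD had 177, 163 and 167 CPM (read counts scaled for library size) in the HNRNPD siRNA libraries, against 965, 943 and 942 CPM in the control libraries, a 5.62-fold fall (edgeR adjusted p = 1.38e-15). Totals were 37151094 to 40462117 counts in the HNRNPD siRNA libraries and 42607632 to 43005090 in the control libraries, and the 42 genes had between 99 and 10091 counts per library. Summed over 5 epithelial markers (EPCAM, KRT8, KRT18, KRT19, CDH1), the level was 2740 to 2775 CPM with HNRNPD siRNA and 4345 to 4618 CPM in controls. KRT8 made up most of the sum, at 2055 CPM with HNRNPD siRNA and 3327 CPM in controls on average. KRT8, KRT18 and KRT19 were called lower, EPCAM was called higher (log2 fold change 0.33, edgeR adjusted p = 0.00158) and CDH1 was not called (0.125). The 4 leukocyte markers together reached at most 0.999 and 2.98 CPM, the 3 endothelial markers 0.501 and 0.358 CPM, and the 3 fibroblast markers, mostly COL1A1, 7.97 and 5.94 CPM in the HNRNPD siRNA and control libraries. PTPRC, a defining leukocyte marker, had at most 2 counts in any library of either group. CD14, most of the leukocyte sum in controls, was called lower at low levels, 0.514 CPM with HNRNPD siRNA and 2.07 CPM in controls (edgeR adjusted p = 1.56e-05). COL1A1 was called higher (0.0184). The part of the marker differences in the results was not tested. CPM values are scaled by TMM (trimmed mean of M-values), and calls, in either direction, use a Benjamini-Hochberg adjusted p under 0.05 over all tested genes.

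Most of the replication and G1/S genes that changed were lower after HNRNPD siRNA. Of the 42 genes, 23 were called lower and 6 higher, while 13 were not called. Among all tested genes 56.1% were called in either direction, 27.8% lower and 28.4% higher. The share of the 42 genes called lower (54.8%) was thus above that background and the share called higher (14.3%) below it. The same 27.8% and 28.4% are the background for the counts of each complex below. Falls of at least 1.5-fold were found for 8 genes and such rises for 2, where 13.9% of all tested genes fell and 17.3% rose by that much. The median log2 fold change was -0.20, against 0.01 over all tested genes. The 3 HNRNPD siRNA libraries lay wholly below the 3 controls for 24 genes and wholly above them for 6, and 30.9% and 31.7% of all tested genes did so. In a culture, fewer cells in S phase and less of these mRNAs per cell cannot be told apart.

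**Figure D1:**
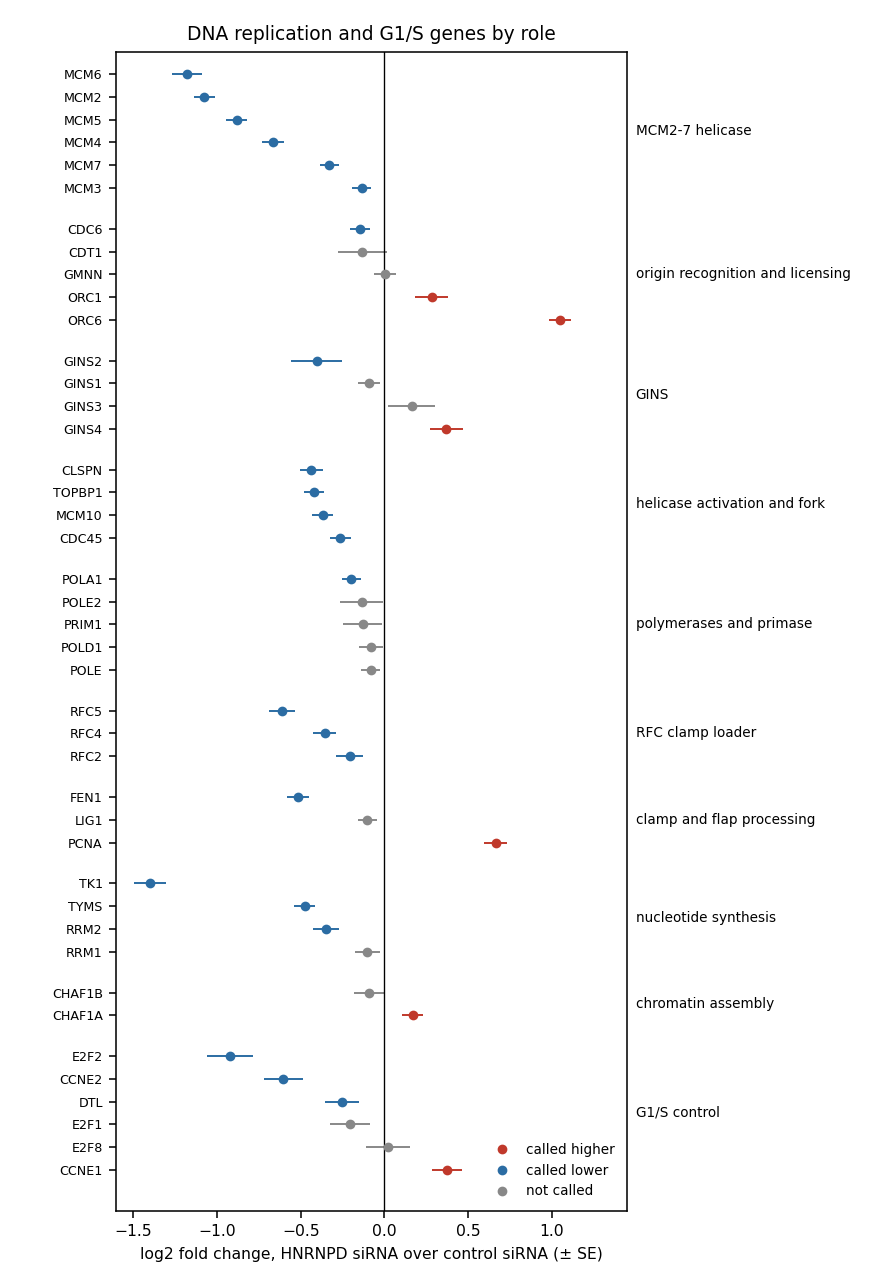
Log2 fold change (HNRNPD siRNA over control siRNA, x axis, ± SE from edgeR) of the 42 genes, grouped by role on the y axis; points are coloured by call. All 6 helicase subunits sit left of 0, while ORC6 at 1.05 and PCNA at 0.66 stand farthest to the right.

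The libraries of each group were close to each other. The median of the 42 genes, each set relative to its own mean in the controls, was 88.7%, 85.6% and 84.4% in HNRNPD siRNA replicates 1 to 3, and 102%, 99.9% and 98.4% in control replicates 1 to 3. The HNRNPD siRNA libraries thus lay below all controls by this measure. HNRNPD siRNA replicate 3 had the lowest level of its group for 23 of the 42 genes, and control replicate 3 the lowest of its group for 22. Without HNRNPD siRNA replicate 3, 22 of the 42 genes were called lower and 6 higher.

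**Figure D2:**
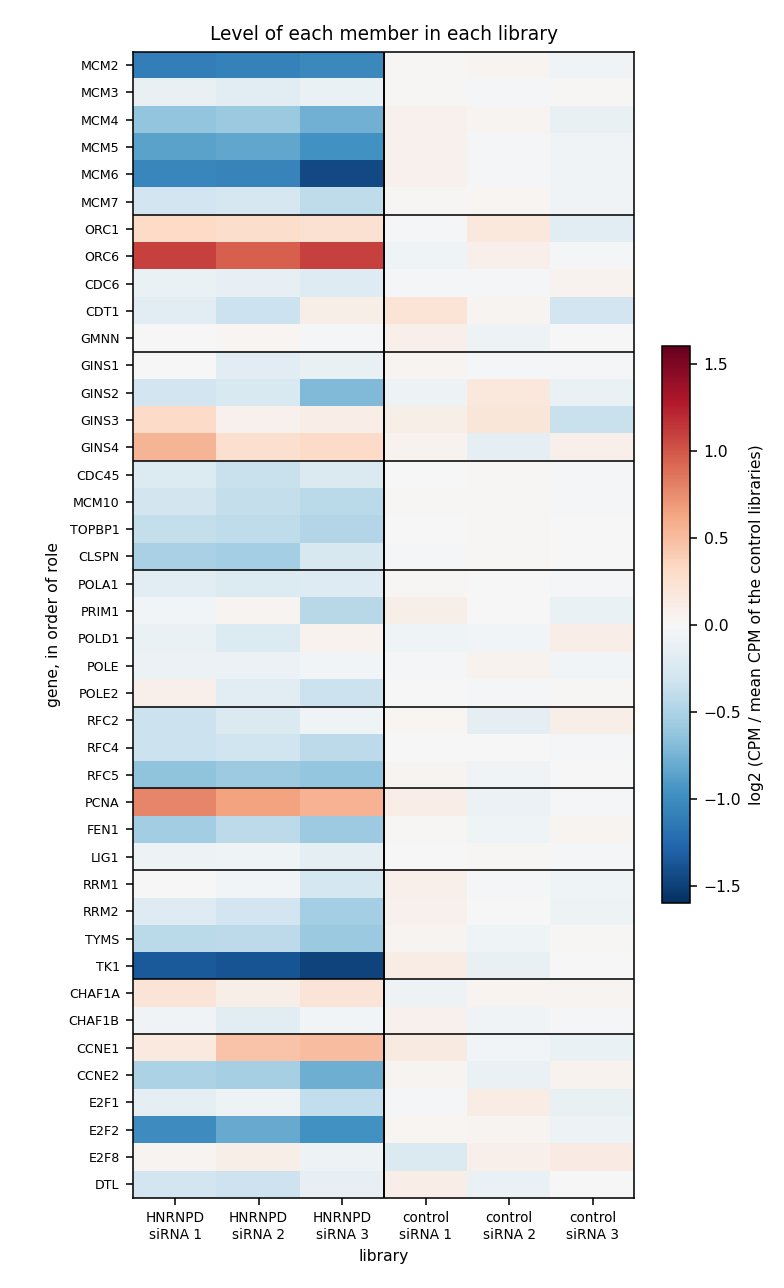
Level of each of the 42 genes (rows, by role) in each library (columns), as log2 of its CPM over the mean CPM of the control libraries. The deepest blue in all 3 HNRNPD siRNA libraries falls on TK1, MCM2 and MCM6, and the deepest red on ORC6 and PCNA.

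The 6 subunits of the MCM2-7 helicase, the ring that unwinds DNA at the replication fork, were all called lower, but by very different amounts. MCM6 had 39.9, 39.2 and 30.3 CPM in the HNRNPD siRNA libraries, against 86.8, 81.2 and 79.3 CPM in the controls. The groups were far apart, with replicate 3 the lowest of the HNRNPD siRNA libraries. The fall was 2.26-fold (log2 fold change -1.18, SE 0.09, edgeR adjusted p = 2.09e-08). The MCM6 gene spans 135839626 to 135876426 of chromosome 2 (minus strand, GRCh38). MCM2 had 42.3, 43.2 and 44.5 CPM with HNRNPD siRNA and 92.2, 94.0 and 87.7 CPM in controls. The HNRNPD siRNA libraries lay close together and far below the controls, and the fall was 2.11-fold (log2 fold change -1.07, SE 0.06, adjusted p = 5.27e-11). MCM2 lies on chromosome 3 from 127598223 to 127622436 (plus strand).

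MCM5 had 48.3, 49.0 and 44.4 CPM in the HNRNPD siRNA libraries, against 91.6, 85.8 and 83.7 CPM in controls, a 1.84-fold fall (adjusted p = 1.48e-09). MCM4 had 103, 106 and 93.8 CPM with HNRNPD siRNA and 168, 164 and 148 CPM in controls, a 1.58-fold fall (adjusted p = 9.27e-08). Both genes were separated between the groups in every library. MCM7 differed less, with 148 ± 7.01 CPM in HNRNPD siRNA cells and 186 ± 6.64 CPM in control cells (SD, n = 3 each), a 1.26-fold fall by edgeR (adjusted p = 0.000119). MCM3 had 195, 187 and 197 CPM with HNRNPD siRNA and 215, 207 and 216 CPM in controls. The groups did not overlap, but the fall was 1.1-fold and stood at the threshold (edgeR adjusted p = 0.0462). It was not called with library totals as the scaling or when any 1 library other than HNRNPD siRNA replicate 3 was left out, with an adjusted p of 0.0588 (HNRNPD siRNA replicate 1), 0.147 (replicate 2), 0.122, 0.0702 and 0.143 (control replicates 1 to 3).

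**Figure D3:**
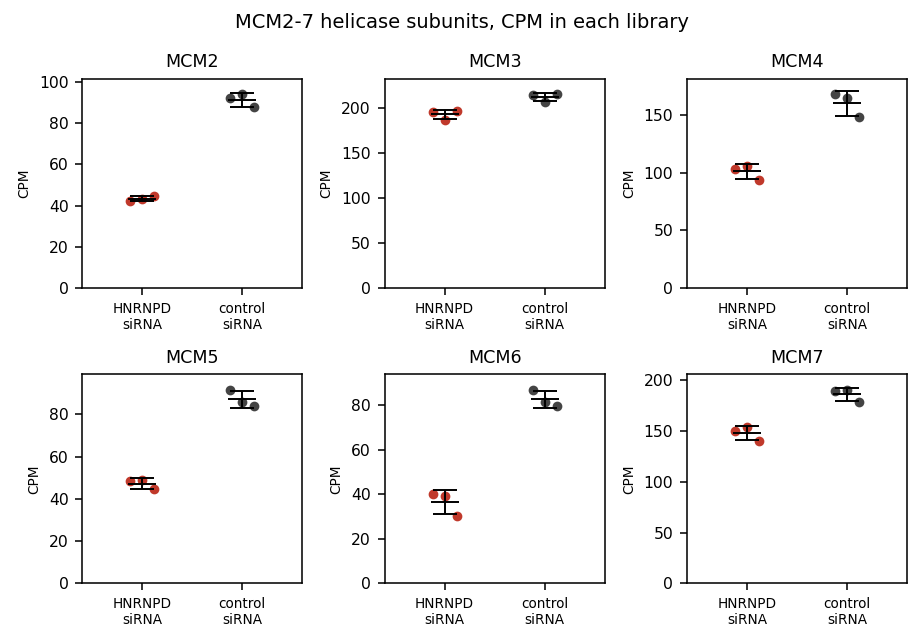
CPM of the 6 helicase subunits in each library (points; bars are mean ± SD, n = 3 per group; HNRNPD siRNA left, control siRNA right, y axes from 0). MCM2 and MCM6 in HNRNPD siRNA libraries stay at or under 44.5 CPM, against at least 79.3 CPM in controls, while MCM3 differs by 1.1-fold.

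Since the protein ring holds each subunit in equal number, mRNA levels were also compared per length. Protein was not measured, so the shares and ratios below are of mRNA only. With the gene lengths of the table, MCM3 was the most abundant subunit mRNA in both groups, at 52.9 CPM per kilobase with HNRNPD siRNA and 58.2 in controls, and MCM7 came next at 33.8 and 42.4. MCM5 was the lowest, at 6.44 and 11.9 CPM per kilobase. The 2 most abundant subunits were thus those with the smallest falls. Of the summed level per length of the 6 subunits, MCM3 took 42.2% ± 1.89 with HNRNPD siRNA and 33.4% ± 1.23 in controls, and MCM6 took 7.03% ± 0.872 and 11.5% ± 0.279 (SD, n = 3 each). The highest subunit stood 8.25 ± 0.628 times above the lowest with HNRNPD siRNA and 4.91 ± 0.239 times in controls. With the length of the principal transcript in GENCODE 29 in place of the table's length, MCM6 and not MCM5 was the lowest subunit, and the spread was 6.28 ± 1.11 times with HNRNPD siRNA and 3.004 ± 0.146 times in controls.

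The 5 genes among the 42 that load the helicase or control its loading did not move in one direction. Of these, which include the inhibitor gene GMNN, 2 were called higher, 1 lower and 2 were not called. ORC6, the smallest subunit of the origin recognition complex, had 86.9, 78.7 and 86.8 CPM in the HNRNPD siRNA libraries, against 38.9, 42.9 and 40.3 CPM in the controls. Every HNRNPD siRNA library was above every control by a wide margin. The rise was 2.07-fold (log2 fold change 1.05, SE 0.07, edgeR adjusted p = 2e-10), the largest among the 42 genes. ORC6 lies on chromosome 16 from 46689643 to 46698394 (plus strand), and its exons overlap no other gene of the table. ORC1, the ATPase subunit whose level varies with the cell cycle, had 14.1, 13.8 and 13.5 CPM with HNRNPD siRNA and 11.2, 12.8 and 10.1 CPM in controls, a 1.22-fold rise (adjusted p = 0.019). This call was lost without HNRNPD siRNA replicate 1 (adjusted p = 0.0526) or without control replicate 1 (0.0614) or 3 (0.124).

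The other 4 subunits of the complex had log2 fold changes below 0. ORC3 had 8.82, 7.30 and 7.04 CPM with HNRNPD siRNA and 11.8, 11.5 and 10.4 CPM in controls, a 1.46-fold fall (edgeR adjusted p = 0.000353). ORC2 had 84.1, 77.7 and 42.6 CPM in the HNRNPD siRNA libraries, against 107, 107 and 105 CPM in controls. HNRNPD siRNA replicate 3 lay far below the other libraries of its group, and ORC2 was not called (adjusted p = 0.129), though without that replicate it was, at a log2 fold change of -0.40 (adjusted p = 1.7e-07), as it was by limma-voom (0.00294). ORC4 and ORC5, at log2 fold changes of -0.15 and -0.18, were not called (adjusted p = 0.0947 and 0.0954), but ORC4 was without HNRNPD siRNA replicate 3 (0.0286).

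Among the proteins that act with ORC, CDC6, the loader ATPase, had 64.7, 63.7 and 60.6 CPM with HNRNPD siRNA and 69.0, 67.9 and 72.2 CPM in controls. The groups did not overlap, yet the 1.11-fold fall (edgeR adjusted p = 0.0482) was lost when any library other than HNRNPD siRNA replicate 1 was left out, with an adjusted p of 0.0762 and 0.0667 without HNRNPD siRNA replicates 2 and 3 and of 0.0866, 0.0682 and 0.172 without control replicates 1 to 3. CDT1, which brings the helicase to origins, had 5.39, 4.80 and 6.47 CPM with HNRNPD siRNA and 7.07, 6.26 and 4.91 CPM in controls, and was not called (adjusted p = 0.471). GMNN, which encodes geminin, the inhibitor of CDT1, stood at 39.5 ± 0.789 CPM in HNRNPD siRNA cells and 39.4 ± 2.21 CPM in control cells (SD, n = 3 each; edgeR adjusted p = 0.965), and its fitted sign changed with the scaling.

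GINS joins CDC45 and the helicase ring in the active fork helicase, and of its 4 subunits 1 was called higher, 1 lower and 2 were not called. GINS4 had 17.3, 14.2 and 14.7 CPM in the HNRNPD siRNA libraries, against 12.4, 10.8 and 12.6 CPM in controls, a 1.29-fold rise (edgeR adjusted p = 0.00368). A fraction of 0.236 of its exonic bases is shared with genes on the opposite strand. The larger of these, RP11-360L9.7, rose as well (log2 fold change 0.95, adjusted p = 0.000483), and its part in the counts of GINS4 was not tested. GINS2 had 3.79, 3.98 and 2.87 CPM with HNRNPD siRNA and 4.46, 5.28 and 4.36 CPM in controls, a 1.32-fold fall (adjusted p = 0.0322). Its call was lost without HNRNPD siRNA replicate 3 (adjusted p = 0.123) or control replicate 1 (0.0508) or 2 (0.149). GINS1 and GINS3 had log2 fold changes of -0.09 and 0.16 and were not called.

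The 4 genes among the 42 for factors that activate or accompany the helicase were all called lower, by 1.20-fold to 1.35-fold. Of 17 further genes of origin firing and the fork, 8 (47.1%) were called lower, 4 (23.5%) higher and 5 were not called. Among all tested genes the shares were 27.8% lower and 28.4% higher. CDC45 had 51.1, 46.4 and 50.6 CPM with HNRNPD siRNA and 59.8, 60.0 and 58.1 CPM in controls, a 1.20-fold fall (edgeR adjusted p = 0.00145). MCM10, which helps to start the unwinding, fell 1.29-fold (adjusted p = 5.86e-05), at 50.1 ± 2.48 CPM in HNRNPD siRNA cells and 64.7 ± 1.36 CPM in control cells (SD, n = 3 each). TOPBP1, a scaffold for origin firing and for the checkpoint kinase ATR, had 44.1, 43.1 and 41.3 CPM with HNRNPD siRNA and 57.1, 57.7 and 56.9 CPM in controls, a 1.34-fold fall (adjusted p = 1.15e-05). CLSPN, which encodes the checkpoint adaptor claspin, had 118, 115 and 141 CPM with HNRNPD siRNA and 166, 171 and 169 CPM in controls, a 1.35-fold fall (adjusted p = 3.6e-05). Its HNRNPD siRNA replicate 3 was the highest of its group, but still below every control.

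Most catalytic subunits of the replicative polymerases were not called. Of the 5 polymerase and primase genes among the 42, POLA1, the subunit of polymerase alpha that extends primers, was called lower, with 79.5, 77.2 and 77.4 CPM in the HNRNPD siRNA libraries and 91.1, 89.5 and 88.2 CPM in controls (1.15-fold, edgeR adjusted p = 0.00589). POLE, the leading-strand polymerase, had 156, 155 and 161 CPM with HNRNPD siRNA and 164, 174 and 162 CPM in controls, and was not called (adjusted p = 0.238). POLD1, the catalytic subunit of the lagging-strand polymerase, overlapped between the groups, at 112, 104 and 125 CPM with HNRNPD siRNA and 115, 117 and 130 CPM in controls (adjusted p = 0.346), and without HNRNPD siRNA replicate 3 it was called at a log2 fold change of -0.17 (adjusted p = 0.0172). PRIM1, the primase, and POLE2 had log2 fold changes of -0.13 and -0.14 and were not called.

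Of 7 further subunits of the same polymerases, 5 (71.4%) were called lower and 1 (14.3%) higher, against 27.8% and 28.4% of all tested genes. PRIM2, the large primase subunit, had 3.02, 3.87 and 3.02 CPM with HNRNPD siRNA and 5.61, 6.19 and 5.34 CPM in controls, a 1.72-fold fall (edgeR adjusted p = 0.00013). POLD3 fell 1.53-fold (adjusted p = 3.42e-07), POLE4 1.49-fold (0.00143) and POLE3 1.36-fold (6.38e-06). POLD2 fell 1.13-fold (adjusted p = 0.0379), a call lost without HNRNPD siRNA replicate 1 (0.0945) or control replicate 1 (0.142) or 3 (0.12). POLD4, the smallest subunit of polymerase delta, rose 1.28-fold (adjusted p = 0.00247), with 18.2, 20.3 and 21.2 CPM with HNRNPD siRNA and 14.2, 17.3 and 14.9 CPM in controls. POLA2 was not called (adjusted p = 0.187). RPA, which coats the exposed strands, had 2 of its 3 genes lower. RPA2 fell 1.59-fold (adjusted p = 1.33e-06) and RPA1 1.38-fold (1.05e-05), while RPA3, at a log2 fold change of -0.15, was not called (0.14), except without HNRNPD siRNA replicate 1 (0.0458).

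The sliding clamp rose, while 3 of the 5 clamp loader genes were called lower and the other 2 were not called. PCNA, the sliding clamp that tethers polymerases to DNA, had 107, 97.1 and 91.6 CPM in the HNRNPD siRNA libraries, against 66.8, 58.4 and 61.1 CPM in controls. All 3 HNRNPD siRNA libraries were above all controls, and the rise was 1.59-fold (log2 fold change 0.66, SE 0.07, edgeR adjusted p = 1.84e-07). PCNA lies on chromosome 20 from 5114953 to 5126626 (minus strand), its exons overlap no other gene of the table, and the 3 PCNA pseudogenes of the table averaged at most 0.333 counts. Per length of the table it was the most abundant of the 42 mRNAs with HNRNPD siRNA, at 66.9 CPM per kilobase, against 42.2 in controls.

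**Figure D4:**
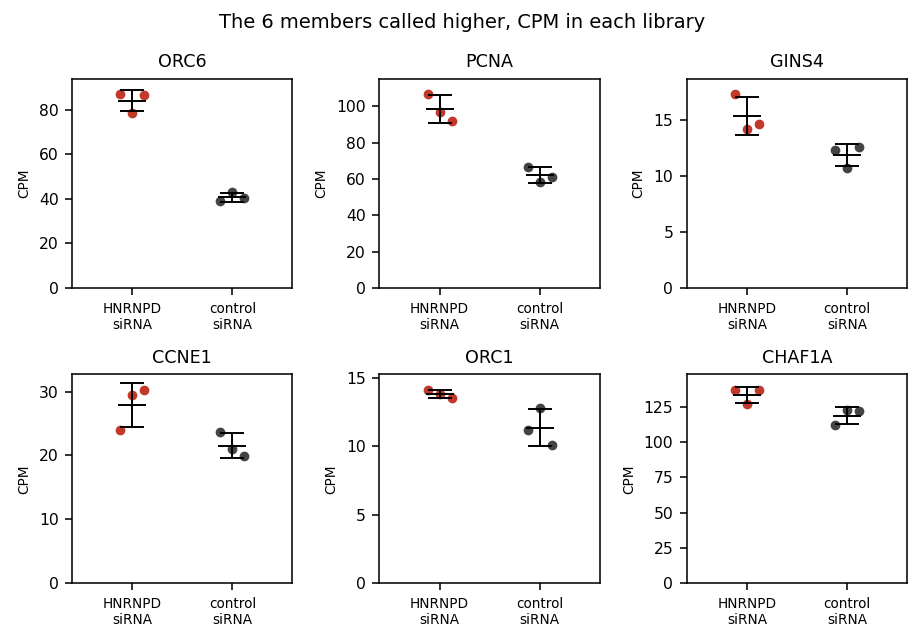
CPM of the 6 genes called higher in each library (points; bars are mean ± SD, n = 3 per group; HNRNPD siRNA left, control siRNA right, y axes from 0). ORC6 and PCNA are widely separated between the groups. In CCNE1, ORC1 and CHAF1A the lowest HNRNPD siRNA library lies just above the highest control.

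Of the loader subunits, RFC5 had 14.4, 15.0 and 14.7 CPM with HNRNPD siRNA and 23.2, 21.7 and 22.5 CPM in controls, a 1.53-fold fall (edgeR adjusted p = 1.81e-06). A fraction of 0.106 of its exonic bases is shared with genes on the opposite strand, of which WSB2 fell too (log2 fold change -0.77, SE 0.09). RFC4 had 25.2, 25.5 and 23.8 CPM with HNRNPD siRNA and 32.0, 32.1 and 31.4 CPM in controls, a 1.28-fold fall (adjusted p = 0.000206). RFC2 overlapped between the groups, at 25.5, 27.6 and 31.0 CPM with HNRNPD siRNA and 33.2, 29.3 and 34.6 CPM in controls (1.16-fold lower, adjusted p = 0.0406), and was not called without HNRNPD siRNA replicate 1 (0.159) or 2 (0.103), without control replicate 1 (0.125) or 3 (0.179), or by limma-voom (0.0528). The large subunit RFC1 and RFC3 were not called (log2 fold changes of -0.04 and 0.07).

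The enzymes that finish the lagging strand differed between themselves. FEN1, the flap nuclease, had 36.4, 40.0 and 35.7 CPM with HNRNPD siRNA and 54.2, 50.9 and 55.1 CPM in controls, a 1.43-fold fall (edgeR adjusted p = 2.96e-06). LIG1, the ligase that seals Okazaki fragments, had 219, 221 and 208 CPM with HNRNPD siRNA and 234, 236 and 226 CPM in controls, and although the groups did not overlap it was not called (adjusted p = 0.132). The ratio of PCNA to FEN1 per length was 4.45 ± 0.43 with HNRNPD siRNA and 1.96 ± 0.108 in controls (SD, n = 3 each).

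Of the 4 genes of deoxynucleotide synthesis among the 42, 3 were called lower and 1 was not called. The largest fall of all 42 genes was in TK1, the thymidine salvage kinase. TK1 had 7.56, 7.37 and 6.84 CPM in the HNRNPD siRNA libraries, against 20.9, 17.6 and 19.0 CPM in controls. The lowest control was above the highest HNRNPD siRNA library by more than 10 CPM. The fall was 2.64-fold (log2 fold change -1.40, SE 0.10, edgeR adjusted p = 6.42e-10). TK1 lies on chromosome 17 from 78174075 to 78187233 (minus strand).

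TYMS, which makes thymidylate from deoxyuridylate, had 69.7, 70.01 and 62.0 CPM with HNRNPD siRNA and 96.7, 89.3 and 94.7 CPM in controls, a 1.39-fold fall (edgeR adjusted p = 4.62e-06). A fraction of 0.262 of its exonic bases is shared with genes on the opposite strand, mainly ENOSF1, which fell as well (log2 fold change -0.40, SE 0.07), and the part of such reads in the fall was not tested. The small subunit of ribonucleotide reductase, RRM2, had 65.1, 61.1 and 51.5 CPM with HNRNPD siRNA and 79.3, 75.5 and 71.2 CPM in controls, a 1.27-fold fall (adjusted p = 0.00103). The large subunit, RRM1, overlapped between the groups, at 136, 132 and 111 CPM with HNRNPD siRNA and 143, 134 and 130 CPM in controls (adjusted p = 0.247). The ratio of RRM2 to RRM1 per length was 0.394 ± 0.00756 with HNRNPD siRNA and 0.468 ± 0.0056 in controls (SD, n = 3 each), with no overlap between the groups.

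Of 6 further genes of nucleotide supply, 4 (66.7%) were called lower and 1 (16.7%) higher, against 27.8% and 28.4% of all tested genes. The lower ones included DCK, the deoxycytidine kinase (1.64-fold, edgeR adjusted p = 3.8e-07). SAMHD1, which breaks deoxynucleotides down and is known to be inducible by interferon, had 101, 77.9 and 132 CPM with HNRNPD siRNA and 14.5, 15.9 and 14.9 CPM in controls, a 6.87-fold rise (adjusted p = 0.000274). The median of 15 interferon-stimulated genes, all called higher, was 216, 180 and 232 CPM with HNRNPD siRNA and 2.63, 2.80 and 1.62 CPM in controls. The part of that response in the rise of SAMHD1 or in the changes of the 42 genes was not tested.

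Regulators of the G1/S step were split, even between the E-type cyclins, which bind and activate CDK2. CCNE1 had 24.0, 29.5 and 30.3 CPM in the HNRNPD siRNA libraries, against 23.7, 21.0 and 19.98 CPM in controls, a 1.30-fold rise (edgeR adjusted p = 0.00217). HNRNPD siRNA replicate 1 was only just above the highest control. CCNE2 had 6.16, 6.06 and 5.10 CPM with HNRNPD siRNA and 9.01, 8.17 and 9.13 CPM in controls, a fall of 0.60 on the log2 scale (adjusted p = 0.000207). A fraction of 0.371 of the exonic bases of CCNE2 is shared with genes on the opposite strand, nearly all with INTS8. INTS8 fell too (log2 fold change -0.28, SE 0.07), with a mean count of 1000.2 against 299.8 for CCNE2, and the part of its reads was not tested. The ratio of CCNE1 to CCNE2 per length was 8.45 ± 1.76 with HNRNPD siRNA and 4.24 ± 0.412 in controls (SD, n = 3 each).

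Among the E2F factors, E2F2, an activator of S phase genes, had 2.72, 3.13 and 2.80 CPM with HNRNPD siRNA and 5.59, 5.63 and 5.17 CPM in controls. The groups were well apart, and the fall was 1.89-fold (log2 fold change -0.92, SE 0.14, edgeR adjusted p = 1.61e-05). E2F1, another activator, had 7.04, 7.35 and 5.95 CPM with HNRNPD siRNA and 7.72, 8.50 and 7.20 CPM in controls, and was not called (adjusted p = 0.151). E2F8, a repressor, stood at 5.80 ± 0.358 CPM in HNRNPD siRNA cells and 5.71 ± 0.744 CPM in control cells (SD, n = 3 each; edgeR adjusted p = 0.901). DTL, the substrate receptor of the ubiquitin ligase that removes CDT1 in S phase, had 8.96, 8.76 and 10.1 CPM with HNRNPD siRNA and 11.9, 10.2 and 10.99 CPM in controls. Its 1.19-fold fall (adjusted p = 0.0417) was lost without HNRNPD siRNA replicate 1 (0.0952) or 2 (0.135) or without control replicate 1 (0.172) or 3 (0.084).

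The subunits of chromatin assembly factor 1, which places histones on new DNA, were not called lower. CHAF1A had 137, 127 and 137 CPM with HNRNPD siRNA and 112, 123 and 122 CPM in controls, a 1.12-fold rise (edgeR adjusted p = 0.0248) that was lost without HNRNPD siRNA replicate 1 (0.0837), without control replicate 1 (0.139) or 3 (0.0531), or with no filter on low counts (0.0704). CHAF1B overlapped between the groups, at 11.8, 10.9 and 11.9 CPM with HNRNPD siRNA and 12.9, 11.9 and 12.1 CPM in controls (adjusted p = 0.402).

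The 61 further genes of DNA replication and G1/S, listed apart from the 42, had 32 (52.5%) called lower and 7 (11.5%) higher. Not called were 22, and the median log2 fold change was -0.24. Among all tested genes, 27.8% were called lower and 28.4% higher. The list was chosen with earlier results of these data known, so it is no independent check of the 42. UHRF1, which brings the maintenance methyltransferase to new DNA, fell 2.53-fold, with 37.8, 43.05 and 39.5 CPM with HNRNPD siRNA and 101, 104 and 99.7 CPM in controls (edgeR adjusted p = 5.59e-12). SLBP, the histone mRNA binding protein, fell 1.67-fold (adjusted p = 1.23e-08). DBF4, the activator of the kinase CDC7, fell 1.59-fold (6e-07), whereas CDC7 itself was called higher, by 1.25-fold (0.00277). DSCC1, of an alternative clamp loader, fell 1.56-fold (2.14e-06), and FBXO5, the inhibitor of the anaphase-promoting complex, 1.51-fold (7.77e-06). No gene of this list other than SAMHD1 rose by 1.5-fold or more.

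Genes of G2 and mitosis were lower too. The 30 such genes were likewise listed with earlier results of these data known. Of them, 25 (83.3%) were called lower and 2 (6.67%) higher, against 27.8% and 28.4% of all tested genes. Their median log2 fold change was -0.45. Their median level was 75.2, 73.1 and 66.8 CPM in the HNRNPD siRNA libraries and 100, 96.4 and 96.1 CPM in the controls, with every HNRNPD siRNA library below every control. The largest changes in each direction were in KIF20A (log2 fold change -1.45), CCNB2 (-0.86), CENPF (0.69) and BUB1 (0.19).

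The direction of change was set beside the E2F forms. Of the 21 genes with a match, 12 were called lower and 1, PCNA, higher, with a median log2 fold change of -0.20. Of the 16 without a match, 8 were called lower and 4 higher, with a median of -0.17. Over all 42 genes 54.8% were called lower and 14.3% higher, and over all tested genes 27.8% and 28.4%. The difference between genes with and without a match was not tested. All 4 helicase genes with a window (MCM2, MCM3, MCM6 and MCM7) had at least 2 matches over their windows, and their log2 fold changes ran from -1.18 in MCM6 to -0.14 in MCM3. The CCAAT box, the letters that the factor NF-Y binds, was found for 23 of the 37 genes (62.2%), against 34.6% of all windows. The CHR forms TTTGAA and TTCGAA, known from genes of G2 and mitosis, were found for 2 (5.41%), against 16.4% of all windows. These motifs were searched on both strands, the E2F forms can overlap each other, and no match says only that the letters are not in this window.

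**Figure D5:**
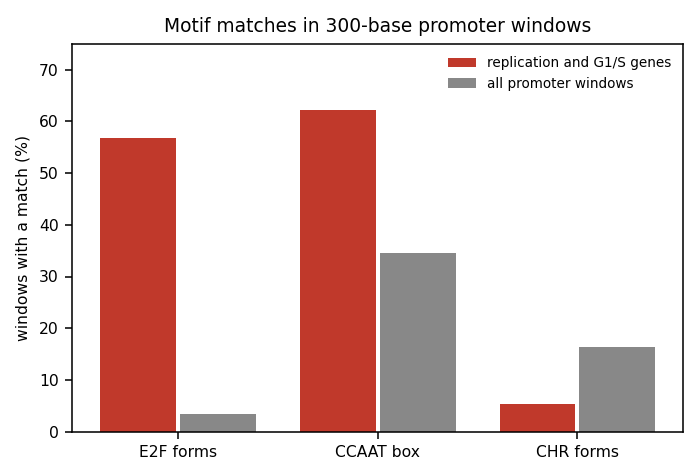
Share (y axis, percent) with at least 1 match to the E2F, CCAAT and CHR forms (x axis) in promoter windows of 300 bases. Left bars are shares of the 37 genes with a window, a gene counting if any of its windows matched. Right bars are shares of all 35116 windows, each counted singly. E2F forms were found for 56.8% of the genes and in 3.31% of all windows.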

How the data were processed

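The authors deposited raw read counts per gene in 1 table for the 6 libraries, with gene lengths and exon coordinates in the same table. The submitters' processing notes name Bowtie 0.12.2 and, as builds, GRCh38 and mm8 without saying what each served for. The sources used here do not give the counting method, annotation or strand setting, so reads of overlapping genes on opposite strands cannot be told apart. Of the 42 genes, 39 have the same start and end in GENCODE 29 (GRCh38). Among counts of 1 to 20, 66.2% to 69.5% per library were even numbers, against 50.6% to 51.7% of counts over 200, and counts divided by 2 were therefore one alternative. Replicates differed by more than sampling noise (chi-square per degree of freedom 6.63 to 27.7).

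Counts were tested with edgeR 4.0.16 (R 4.3.3) by the robust quasi-likelihood test with TMM scaling, filterByExpr and group as the only term, and p-values were adjusted by Benjamini-Hochberg over all tested genes. Each SE was obtained by dividing the fold change (log2) by the root of F. Alternatives used DESeq2 1.42.0, limma-voom (limma 3.58.1), other scalings and filters, a replicate block, and left out each library. The fit was tested on simulated counts with 200 genes changed and 1 dispersion for all genes. Far more genes were called here, so scaling and error rates at such a share of changes were not tested. The members, lists and tests were chosen with earlier results of these data known. The text names all 42 members and the further subunits of ORC, RFC, the polymerases and RPA. It also names other replication genes called at 1.5-fold or more, CDC7 as the partner of DBF4, and the largest changes among genes of G2 and mitosis. Of these, 1 gene is not reported here. The promoters of MCM2 and MCM6 were chosen for printing after their values were seen.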

Additional observations from a re-analysis of the deposited data

How the results depend on the processing

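Under 15 alternatives, 18 to 23 of the 42 genes were called lower and 4 to 6 higher, against 23 and 6 as reported. Of the 29 calls, 22 (18 lower, 4 higher) were kept under every alternative, and the other 7 (MCM3, CDC6, RFC2, DTL, GINS2 lower; ORC1, CHAF1A higher) were lost under 3 to 9 of them. The median log2 fold change of the polymerase genes was -0.13, and it was -0.15 with no filter on low counts, -0.10 with at least 1 CPM in 3 libraries, and -0.18 to -0.11 with 1 library left out. That of GINS was 0.03, in a range of -0.049 to 0.082 with 1 library left out. The GMNN log2 fold change, 0.0039 as reported, was -0.0027 with DESeq2 size factors and in the DESeq2 test and -0.018 with no filter, and -0.034 to 0.047 with 1 library left out. The E2F8 log2 fold change, 0.022 as reported, ranged from -0.082 (without control replicate 1) to 0.087 (without control replicate 3), and was -0.015 without HNRNPD siRNA replicate 2. With the replicate block, 21 of the 42 genes were called lower and 6 higher; it ended the calls of MCM3 (adjusted p = 0.0501) and CDC6 (0.0573). Over all genes, 5792 were then called higher and 5737 lower. Same-numbered libraries deviated together at r = 0.026, 0.022 and 0.014 only. HNRNPD siRNA replicate 3 correlated slightly better with control replicate 2 (r = 0.016), and every other library correlated best with its own number. As all these correlations were small, the numbers were not taken as pairs. Leaving out the genes that share over 0.1 of their exonic bases with another gene left 37, with 20 lower and 5 higher. The 42 genes had at least 99 counts in every library.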
